A study of Mus musculus with 8 samples.

Results

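The genes described here are 8 transcription factors of granulocyte and monocyte development, Spi1, Cebpa, Cebpb, Cebpd, Cebpe, Gfi1, Klf4 and Irf8. They were listed by name as known myeloid regulators, with no threshold on their values but with earlier results of these data known, and all 8 were found by gene symbol among the 52550 genes of each expression table. RNA-seq was performed on cells flow-sorted as pre-pro-B or pro-B cells from the bone marrow of C57BL/6J mice, either wild type (WT) or lacking lactoferrin (Lf-/-), the iron-binding protein of milk and neutrophil granules that is encoded by Ltf. WT mice gave 2 pre-pro-B libraries and 1 pro-B library, and Lf-/- mice gave 2 libraries of each stage. The other WT sample of pro-B cells was not used here, so every value of WT pro-B cells rests on a single library. The WT mice were littermates of matched age, no treatment, Cre or transgene was named for either genotype, and the ages were not given. The study's flow cytometry defined pro-B cells as B220+CD43+IgM-. The study's methods give 3 mice per group and the labels 2 libraries, and how mice and libraries correspond was not stated, so the p-values measure the spread between libraries, which may be technical.

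Myeloid identity is set by a small network of DNA-binding proteins. PU.1, the product of Spi1, is an ETS-family factor needed by granulocytes and macrophages and, at lower dose, by B cells. The CCAAT/enhancer-binding proteins (C/EBP) share a basic leucine zipper and act in sequence along the granulocyte path: C/EBPα (Cebpa) at entry into the granulocyte-monocyte progenitor, C/EBPε (Cebpe) at the formation of secondary granules, C/EBPδ (Cebpd) in late neutrophil precursors and C/EBPβ (Cebpb) in emergency granulopoiesis and macrophages. Gfi1 is a zinc-finger repressor that favours granulocytes over monocytes, Klf4 is a Krüppel-like factor of monocytes, and Irf8 is an interferon regulatory factor needed by monocytes and dendritic cells that also acts in early B cells. Early B-cell progenitors carry little Cebpa, Cebpe or Gfi1-driven granule programme.

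The values were FPKM, fragments normalised to transcript length and to the number of mapped fragments, which allow levels to be compared between genes. Depth was estimated for 6 of 7 libraries from the spacing of low values, at about 11000000 to 15400000 fragments. Lf-/- pre-pro-B replicate 2 stood apart, with 12172 genes above 0 against 19477 to 20250 in the others and no spacing from which depth could be read. The targeted gene followed the labels, with Ltf at 2143 to 2731 FPKM in the WT libraries, against 88.2 to 168 in those from Lf-/- mice. The contents of the libraries went partly against the sort labels. The 18 genes of a neutrophil granule list, such as S100a8, Camp and Elane, made up 27.6% to 55.6% of the summed FPKM of a library, whereas 16 early B lineage genes made up 0.0243% to 0.345%. The recombinase gene Rag1 did not exceed 1.81 FPKM in any library. The levels below are therefore those of the sorted fractions as sequenced.

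The promoters of Irf8 and Cebpa are shown because these were the 2 factors whose Lf-/- libraries all lay on one side of all WT libraries. Promoter sequence was taken from RefSeq on GRCm38.p6 for 5 of the 8 factors, with Spi1, Cebpd and Cebpe not in the table, and each window holds the 250 bases before the transcription start, written 5′ to 3′ on the gene's strand. Capitals mark matches to TTCNNNGAA, the palindrome bound by STAT proteins, and to TATAAA, the TATA box.
Irf8, chr8:120736108-120736357, plus strand: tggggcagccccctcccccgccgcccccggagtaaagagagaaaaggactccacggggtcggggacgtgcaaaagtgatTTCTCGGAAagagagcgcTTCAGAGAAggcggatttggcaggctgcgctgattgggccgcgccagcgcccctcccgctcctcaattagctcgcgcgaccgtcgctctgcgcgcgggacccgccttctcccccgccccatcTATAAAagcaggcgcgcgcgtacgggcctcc
Cebpa, chr7:35119043-35119292, plus strand: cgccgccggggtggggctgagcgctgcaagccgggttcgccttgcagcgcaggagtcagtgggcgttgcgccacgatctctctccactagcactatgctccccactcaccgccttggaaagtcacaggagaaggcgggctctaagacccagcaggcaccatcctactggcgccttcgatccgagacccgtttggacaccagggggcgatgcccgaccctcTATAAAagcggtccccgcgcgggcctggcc
The Irf8 window shown held 2 matches to TTCNNNGAA, beginning 171 and 153 bases upstream of the start, and a TATAAA beginning 31 bases upstream. Of 32841 promoter windows of the same length, 7.02% held TTCNNNGAA on either strand and 12.4% held TATAAA. The Cebpa window held a TATAAA beginning 30 bases upstream and no TTCNNNGAA. Neither window held GAGGAA, a pattern of PU.1 and other ETS factors (in 23.3% of windows), or TTNNGNAA, a C/EBP pattern (36.9%). The interferon-stimulated response element, searched as GAAA, any pair of bases and GAAA (2.98%), was also absent from both. The shorter ETS core GGAA stands in both windows but was not among the patterns searched. CACCC, read by Krüppel-like factors and present in 52% of windows, matched on the reverse strand of the Cebpa window only, 242 bases upstream. Among the other factors, the Cebpb window held 2 CACCC matches, the outer Gfi1 window 2 CACCC matches and 1 TTNNGNAA match, and the Klf4 window none of the 6 patterns. Another Irf8 window, of a start 2281 bases into the gene, and the inner Gfi1 window also held none of them. These letters were searched on both strands, were chosen after the sequences were seen, and describe the windows without showing that any factor binds there.

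The factors covered a wide range of levels. Cebpe was the most abundant, with a median of 240 FPKM over the 7 libraries, followed by Spi1 at 139 FPKM, Cebpb at 119 FPKM, Cebpd at 33.5 FPKM, Irf8 at 23.7 FPKM, Gfi1 at 6.45 FPKM, Klf4 at 2.69 FPKM and Cebpa at 2.31 FPKM. Of the 7 neighbouring pairs in this order, 2 were separated in every library, Cebpb above Cebpd and Irf8 above Gfi1, and the ranges of the other 5 pairs overlapped. Cebpe exceeded Spi1 in 6 of 7 libraries, Klf4 exceeded Cebpa in 4 of 7. Thus Cebpe had the highest median and Cebpa the lowest, though Cebpa was not clearly apart from Klf4. The medians neither rose nor fell steadily along the granulocyte path, since Cebpe lay above both Cebpa, placed before it, and Cebpd, placed after it. Together the 8 factors made up 0.0526% to 0.103% of the summed FPKM of a library.

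**Figure D1:**
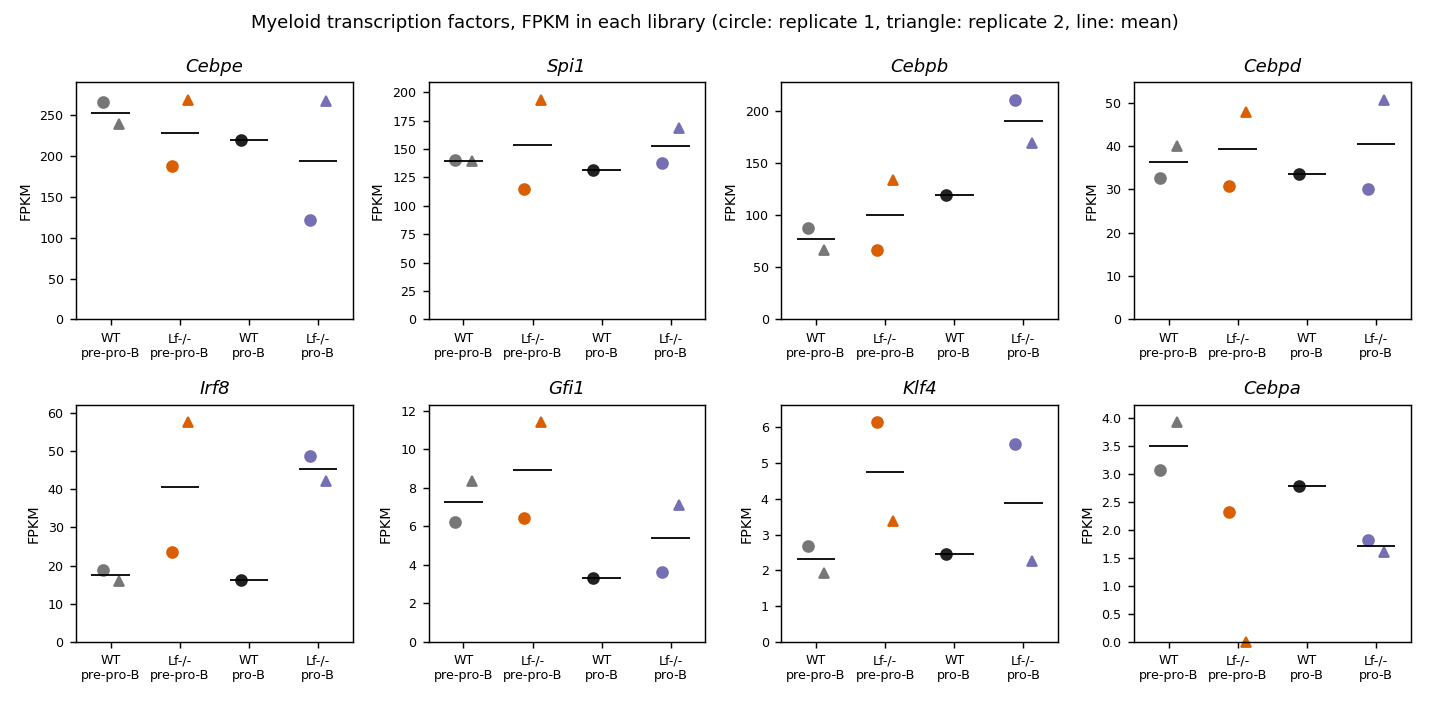
FPKM of each of the 8 transcription factors (vertical axes, linear, from 0) in the 4 groups of libraries (horizontal axes). Circles are replicate 1, triangles replicate 2 and lines group means (for WT pro-B the single value), left out where a library is listed at 0. Irf8 was higher and Cebpa lower in all 4 Lf-/- libraries than in all 3 WT libraries, and the genotypes overlapped for the other 6 factors.

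The comparison of genotypes addressed whether loss of lactoferrin was accompanied by a shift in these regulators. With both stages in one model, none of the 8 factors passed an adjusted p of 0.05 (limma, Benjamini-Hochberg over 10793 genes), against 0.185% of all genes tested. At an unadjusted p under 0.05, 1 of 8 factors was called, Irf8, against 7.17% of all genes. The median difference of the factors, Lf-/- minus WT, was 0.24 on the log2(FPKM + 1) scale, beside 0.21 for all genes, 6 of 8 being above 0. Scaling the libraries to a common median ratio moved the median of all genes to -0.059 and that of the factors to -0.090, so a difference of about 0.2 on FPKM is that of a typical gene. All 4 Lf-/- libraries exceeded all 3 WT libraries for Irf8 (9.87% of genes did so) and lay below them for Cebpa (1.13% of genes).

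**Figure D2:**
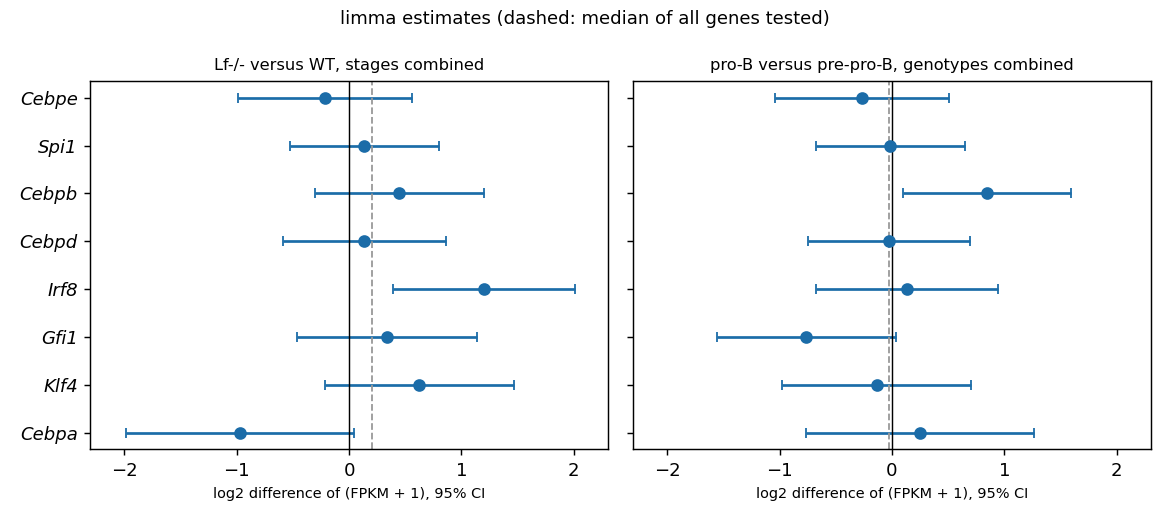
Log2 differences of the 8 factors on the log2(FPKM + 1) scale with 95% confidence intervals from limma, for Lf-/- minus WT and for pro-B minus pre-pro-B, each over all 7 libraries. Dashed lines mark the median of all genes tested, 0.21 and -0.027. The interval of Irf8 lay above 0 for genotype, 0.39 to 2.01, and that of Cebpb lay above 0 for stage, 0.10 to 1.60, whereas neither difference passed the adjusted p.

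Irf8 (ENSMUSG00000041515, GRCm38 chr8:120736358-120756694, plus strand, 9 exons in its longest coding transcript) gave 18.8 and 16.1 FPKM in WT cells at the pre-pro-B stage and 16.2 at the pro-B stage. The Lf-/- libraries gave 23.7 and 57.6 FPKM at the pre-pro-B stage, then 48.7 and 42.2 at the pro-B stage. The 3 WT libraries sat within 3 FPKM of each other and the 4 Lf-/- libraries were all above them, with Lf-/- pre-pro-B replicate 1 the nearest. The group means were 17.5 ± 1.95 FPKM (SD, n = 2) in WT and 40.6 ± 24.0 (SD, n = 2) in Lf-/- cells at the pre-pro-B stage, and 45.5 ± 4.54 (SD, n = 2) in Lf-/- cells at the pro-B stage. The difference by genotype was 1.20 (SE 0.36) on the log2(FPKM + 1) scale, with a 95% interval of 0.39 to 2.01 and an adjusted p of 0.418 (limma). It was 1.05 (SE 0.48) within pre-pro-B cells and 1.43 (SE 0.58) within pro-B cells, and the difference between these, 0.38 (SE 0.76), was not detectable with these libraries (limma, adjusted p = 0.995). Without Lf-/- pre-pro-B replicate 1 the combined difference was 1.55 with an adjusted p of 0.0482 (limma) and that within pre-pro-B cells was 1.67. The latter compared Lf-/- pre-pro-B replicate 2 alone, assumed to vary like the other groups, and 3212 of 10581 genes passed the adjusted test in that fit. By contrast, without Lf-/- pre-pro-B replicate 2, the library with few detected genes, the combined difference was 0.93 and the difference within pre-pro-B cells 0.42. Irf8 ranked above 88.9% to 94.9% of the genes detected in a library, and its spread over the 7 libraries, an SD of 0.76 on the log2 scale, exceeded that of 82.5% of the genes tested.

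Genes of other cell types that express Irf8 were examined beside it. In bulk RNA, more cells of a type and more RNA of a gene per cell cannot be told apart. The early B lineage list made up 0.0243% to 0.0664% of summed FPKM in the 3 WT libraries and 0.197% to 0.345% in the 4 Lf-/- libraries. Of its 15 genes tested, 15 were higher in Lf-/- and 3 passed the adjusted test, among them the B-cell receptor signalling chains Cd79a and Cd79b, with log2 differences of 2.79 and 2.82 (limma, adjusted p of 0.0273 and 0.0136). A plasmacytoid dendritic cell list without Ly6d, a gene that B-cell progenitors also express, made up 0.0110% to 0.0128% in WT and 0.0212% to 0.0711% in Lf-/- libraries. In Lf-/- pre-pro-B replicate 1, the lowest of these, the place above WT rested on Spib. That gene gave 107 of the 176 FPKM of the list there, against 8.81 to 20.8 FPKM in WT libraries. Its interferon-inducible member Bst2 was at 13.1 to 18.6 FPKM in WT and 25.8 to 104 FPKM in Lf-/- libraries, and Siglech, a lectin that marks these cells, was at 3.94 to 7.76 FPKM in WT and 1.98 to 43.8 FPKM in Lf-/- libraries. Of the full list 10 of 11 genes were tested, 9 were higher in Lf-/- and 1, Ly6d, passed (log2 difference 2.85, limma, adjusted p = 0.0136). The list of 14 monocyte and macrophage genes made up 0.189% to 0.387% in WT and 0.143% to 0.353% in Lf-/- libraries, with 7 genes higher, 7 lower and none past the adjusted test. Erythroid genes took 1.91% to 6.996% in WT and 3.55% to 15.2% in Lf-/- libraries, and T and NK cell genes 0.109% to 0.168% and 0.0618% to 0.140%. Most of the T and NK share was Nkg7, at 885 to 1283 FPKM in WT and 324 to 919 FPKM in Lf-/- libraries. By gene that list went the other way. Of its 10 genes tested 9 were higher in Lf-/- and 1 lower, with a median of 0.60 beside 0.21 for all genes, and none passed. The share of the Irf8 difference that came with B-lineage or dendritic cells was not tested.

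**Figure D3:**
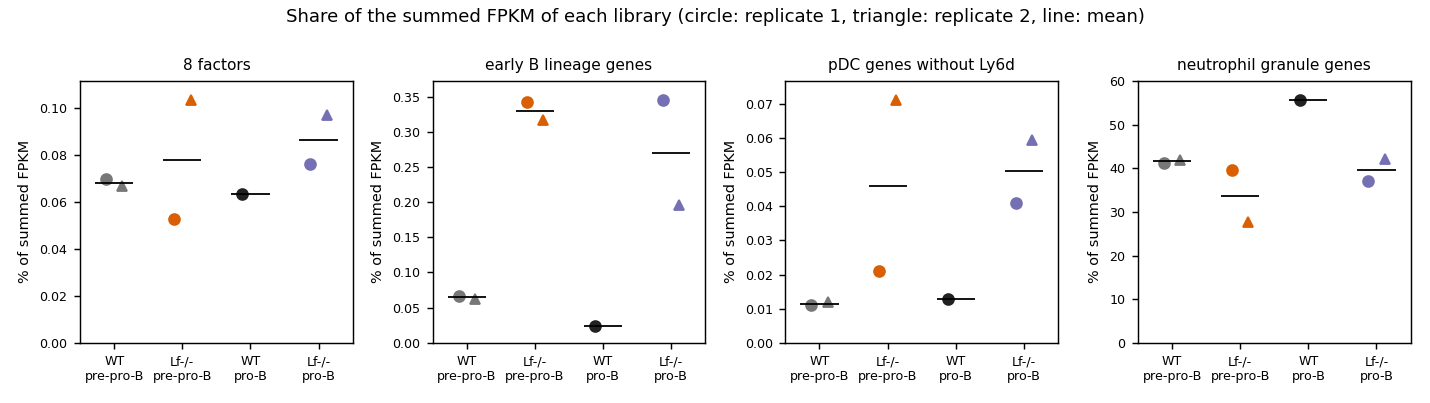
Share of the summed FPKM of each library, in percent (vertical axes, linear, from 0), taken by the 8 factors, 16 early B lineage genes, 10 plasmacytoid dendritic cell (pDC) genes without Ly6d and 18 neutrophil granule genes, by group. Circles are replicate 1, triangles replicate 2 and lines group means (for WT pro-B the single value). The early B lineage and pDC shares of all 4 Lf-/- libraries lay above those of the 3 WT libraries, and the share of the 8 factors overlapped. For the pDC share of Lf-/- pre-pro-B replicate 1 this rested on the gene Spib.

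Cebpa (ENSMUSG00000034957, chr7:35119293-35121928, plus strand, a single exon) had the lowest median level and the most negative genotype difference of the 8. The WT libraries gave 3.06 and 3.92 FPKM at the pre-pro-B stage and 2.78 at the pro-B stage. From Lf-/- mice, pre-pro-B replicate 1 gave 2.31 FPKM, pre-pro-B replicate 2 listed the gene at 0, and the pro-B libraries gave 1.82 and 1.60. The Lf-/- libraries all lay below the WT ones, on FPKM and with median-ratio or quantile scaling. At the estimated depths these levels stood for about 53 to 124 fragments per library where it was above 0. The difference by genotype was -0.97 (SE 0.45, 95% interval -1.98 to 0.043) on the log2(FPKM + 1) scale with the listed 0 included, and did not pass (limma, adjusted p = 0.689). Without the library listed at 0, Lf-/- pre-pro-B replicate 2, it was -0.46 (SE 0.27). Without Lf-/- pre-pro-B replicate 1, the comparison within pre-pro-B cells rested on the library listed at 0 alone, with the spread taken from the other groups, and gave -2.16 in the same fit in which 3212 of 10581 genes passed. An antisense gene, Gm45091, lies opposite Cebpa and reached at most 0.113 FPKM.

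The primary granule genes are known targets of C/EBPα and PU.1 and are made at the promyelocyte stage. Mpo, Elane, Prtn3 and Ctsg together made up 2.48% to 3.22% of summed FPKM in the WT libraries and 0.590% to 1.97% in the Lf-/- libraries. Their log2 differences were -1.19, -1.46, -1.19 and -0.99, none of which passed (limma, adjusted p of 0.560 to 0.632). These 4 genes were grouped after their values were seen. Of the 18 neutrophil granule genes, 14 were lower and 4 higher in Lf-/- cells, and 1, Ltf itself, passed the adjusted test.

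The remaining C/EBP factors showed no separation of the genotypes. Cebpe (ENSMUSG00000052435, chr14:54710360-54712174, minus strand, 2 exons) gave 266 and 240 FPKM in the WT and 188 and 269 in the Lf-/- pre-pro-B libraries, 220 in the WT pro-B library and 121 and 268 at that stage without lactoferrin. It ranked above 97.9% to 99.0% of the detected genes in each library. The highest and lowest of its values were both in Lf-/- cells, and the difference by genotype was -0.21 (SE 0.34). With median-ratio scaling its 4 Lf-/- libraries, at 103 to 237, all fell below the 3 WT libraries, at 257 to 299, whereas with quantile scaling they overlapped.

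Cebpb (ENSMUSG00000056501, chr2:167688915-167690418, plus strand, a single exon) gave 87.5 and 66.3 FPKM in the WT and 66.9 and 134 in the Lf-/- pre-pro-B libraries. The WT pro-B library gave 119 FPKM, and its Lf-/- counterparts 210 and 169. Values were higher in pro-B than in pre-pro-B cells with the exception of Lf-/- pre-pro-B replicate 2, which exceeded the WT pro-B library. The difference by genotype was 0.45 (SE 0.33). Cebpd (ENSMUSG00000071637, chr16:15887286-15891031, plus strand, a single exon) was among the steadiest of the group, with 32.7 and 40.1 FPKM for WT and 30.7 and 47.9 for Lf-/- pre-pro-B cells, then 33.5 for WT and 30.1 and 50.7 for Lf-/- pro-B cells. Its difference by genotype was 0.14 (SE 0.32) and changed sign with median-ratio or quantile scaling. Genes on the opposite strand overlap Cebpb (Tmem189, at most 18.6 FPKM) and Cebpd (Spidr, at most 8.91 FPKM), and the strand setting of the counting was not given.

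Spi1 (ENSMUSG00000002111, chr2:91082390-91115756, plus strand, 5 exons) varied least. At the pre-pro-B stage WT libraries gave 141 and 139 FPKM and Lf-/- libraries 115 and 193, and at the pro-B stage the WT library gave 132 and the Lf-/- libraries 137 and 169. The Lf-/- pre-pro-B libraries enclosed all the others. Its SD over the 7 libraries, 0.25 on the log2 scale, was below the median of all genes, 0.48, and above that of 8.67% of them. The difference by genotype was 0.14 (SE 0.29, 95% interval -0.53 to 0.80), and with median-ratio scaling it was -0.22.

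Gfi1, which favours granulocytes, and Klf4, a factor of monocytes, were both low among the 8 factors. Gfi1 (ENSMUSG00000029275, chr5:107716657-107726036, minus strand, 6 exons) gave 6.20 and 8.37 FPKM (WT) and 6.45 and 11.4 (Lf-/-) at the pre-pro-B stage, then 3.31 (WT) and 3.63 and 7.12 (Lf-/-) at the pro-B stage. Klf4 (ENSMUSG00000003032, chr4:55527143-55532466, minus strand, 5 exons) gave 2.69 and 1.92 FPKM (WT) and 6.14 and 3.38 (Lf-/-) at the pre-pro-B stage, then 2.47 (WT) and 5.53 and 2.26 (Lf-/-) at the pro-B stage. Replicate 1 of both Lf-/- groups was highest for Klf4, and for Gfi1 the highest library was Lf-/- pre-pro-B replicate 2. The differences by genotype were 0.34 (SE 0.35) for Gfi1 and 0.63 (SE 0.37) for Klf4, with adjusted p of 0.750 and 0.689 (limma). A gene on the opposite strand, A430072P03Rik, overlaps Gfi1 and reached at most 2.52 FPKM.

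Within each stage fewer libraries could be compared. In pre-pro-B cells both Lf-/- libraries exceeded both WT libraries for Irf8 and Klf4, as for 15.1% of genes, and lay below them for Cebpa, as for 17.8%. Klf4 overlapped with median-ratio and quantile scaling, whereas Irf8 and Cebpa remained separated. The share of all genes separated within a stage was not computed for these scalings. No gene passed the adjusted test there (0% of 10793), 4.89% passed an unadjusted p of 0.05 and 0 of the 8 factors did. In pro-B cells both Lf-/- libraries exceeded the single WT library for Spi1, Cebpb, Gfi1 and Irf8, as for 75.3% of genes, and lay below it for Cebpa, as for 6.9%. The position of the WT pro-B library depended on scaling, since Spi1 lay below it with median-ratio and quantile scaling and Gfi1 overlapped it with both, and Cebpb overlapped it with median-ratio scaling, whereas Irf8 and Cebpa stayed where they were. No gene passed the adjusted limma test (0%), and 4.33% passed an unadjusted p of 0.05, Irf8 among them. Irf8 did not pass it with the replicate block, median-ratio scaling, quantile scaling or no filter. It was also lost when either WT pre-pro-B library or either Lf-/- pro-B library was left out. For the difference of the genotype effect between stages, no gene passed either (0%, with 2.74% at an unadjusted p of 0.05 and 0 of the 8 factors).

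Ratios of one factor to another within a library do not depend on a factor by which the library is multiplied, though quantile scaling can change them. The ratio of Irf8 to Spi1 was 0.134 and 0.116 in the WT and 0.207 and 0.298 in the Lf-/- pre-pro-B libraries, then 0.123 in the WT and 0.354 and 0.251 in the Lf-/- pro-B libraries. All 4 Lf-/- ratios lay above the WT ones. The ratio of Irf8 to Cebpe separated the genotypes as well, at 0.0671 to 0.0736 in WT and 0.126 to 0.401 in Lf-/- libraries, and so did that of Spi1 to Cebpe, at 0.528 to 0.599 in WT and 0.610 to 1.13 in Lf-/- libraries. That of Irf8 to Cebpb overlapped, with Lf-/- pro-B replicate 1 at 0.231 and WT pre-pro-B replicate 2 at 0.242. The genotypes also overlapped for Gfi1 to Cebpe, at 0.0150 to 0.0349 in WT and 0.0265 to 0.0424 in Lf-/- libraries. So they did for Cebpd to Cebpe, at 0.123 to 0.167 and 0.164 to 0.248. The ratio of Cebpb to Cebpe was 0.329 and 0.277 in WT and 0.356 and 0.497 in Lf-/- pre-pro-B cells, and 0.540 in WT and 1.73 and 0.631 in Lf-/- pro-B cells. Here the stages did not overlap, the 3 pro-B libraries all lying above the 4 pre-pro-B libraries. Cebpb exceeded Cebpe in Lf-/- pro-B replicate 1 alone. The ratio of Klf4 to Gfi1 ran from 0.230 to 1.52 and overlapped between the genotypes and between the stages, with replicate 1 above replicate 2 in each of the 3 groups of 2 libraries. Such a ratio shows that its 2 genes differed unequally, not which of them differed. Irf8 had already separated the genotypes by itself, and the share of all gene pairs whose ratios separate the groups was not computed.

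**Figure D4:**
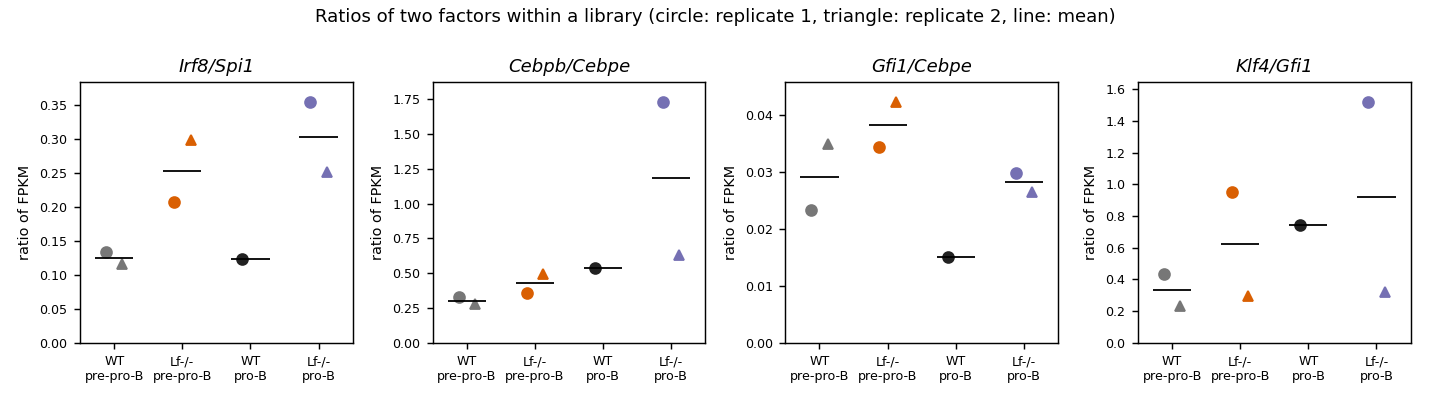
Ratios of the FPKM of one factor to that of another in the same library (vertical axes, linear, from 0) for Irf8 to Spi1, Cebpb to Cebpe, Gfi1 to Cebpe and Klf4 to Gfi1, by group. Circles are replicate 1, triangles replicate 2 and lines group means (for WT pro-B the single value). Irf8 to Spi1 was 0.116 to 0.134 in WT and 0.207 to 0.354 in Lf-/- libraries, and Cebpb to Cebpe was 0.277 to 0.497 in pre-pro-B and 0.540 to 1.73 in pro-B libraries.

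The comparison of stages asked whether these factors differed between the pre-pro-B and pro-B fractions. With both genotypes in the model, none of the 8 passed the adjusted limma test, against 0.00927% of genes (1 gene), and 1 of 8 passed an unadjusted p of 0.05, against 2.41%. That factor was Cebpb, higher in pro-B cells by 0.85 (SE 0.33, limma, adjusted p = 0.947). Gfi1 was next, with a pro-B minus pre-pro-B difference of -0.76 (SE 0.35, limma, adjusted p = 0.947). The other 6 lay between -0.27, for Cebpe, and 0.25, for Cebpa, and the median of the 8 was -0.021 beside -0.027 for all genes. No factor had its 3 pro-B libraries beyond the 4 pre-pro-B libraries on FPKM, as 2.15% of genes did. With median-ratio or quantile scaling Cebpb did, in the higher direction, and the share of all genes was not computed for these scalings. Of the 18 neutrophil granule genes, 11 were higher and 7 lower in pro-B cells, with a median of 0.097, and none passed the adjusted test.

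Other genes of the myeloid programme were taken from lists. Of 3 other C/EBP family genes, Cebpg, Cebpz and Ddit3, 2 were higher in Lf-/- cells and none passed, and the most abundant, the stress-induced partner Ddit3, was at 13.2 to 31.6 FPKM in WT and 26.8 to 49.1 FPKM in Lf-/- libraries (log2 difference 0.78, SE 0.39). Of 23 further myeloid and progenitor regulators 21 were tested, 19 higher and 2 lower in Lf-/- cells, with a median of 0.49 beside 0.21 for all genes. Of these, 0 passed the adjusted limma test and 5 an unadjusted p of 0.05, all 5 higher. Among all 10793 genes 774 (7.17%) passed that unadjusted p, and 699 of those were higher. The 5 regulators were Klf2, Klf6, Egr1, Nr4a1 and Irf4. Klf2, a factor of quiescent lymphocytes and monocytes and the most abundant of the list, was at 49.1 to 90.6 FPKM in the WT and 102 to 165 FPKM in the Lf-/- libraries (log2 difference 1.15, SE 0.30, limma, adjusted p = 0.316). Irf4, the closest relative of Irf8 and active in early B cells, was at 0.422 to 1.83 FPKM in WT and 2.12 to 8.38 FPKM in Lf-/- libraries (1.82, SE 0.43, limma, adjusted p = 0.243), and was named after its values were seen. Of 9 myeloid cytokine receptors 8 were tested, 6 were higher and 2 lower, and none passed. Csf3r, the receptor of granulocyte colony-stimulating factor, differed by 0.078 (SE 0.35). Flt3, a receptor of early progenitors and dendritic cells, was at 2.69 to 5.13 FPKM in WT libraries and at 2.76 to 38.3 FPKM in Lf-/- libraries, the high value being in Lf-/- pre-pro-B replicate 2. For the stage comparison, none of these 3 lists held a gene past the adjusted test.

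For each factor the tested genes with the closest pattern over the 7 libraries were found as those with the smallest root mean square difference of centred log2(FPKM + 1) values. The closest match of all was that of Spi1 with Cks1b, a cell cycle kinase subunit, at 0.0481, followed by Cpne3 at 0.056. Cebpd was closest to Gm7536 at 0.0825 and Sfxn1 at 0.0929, and Cebpe to Pde4d at 0.125 and Pnp2 at 0.136. Cebpa was closest to Abcd2 at 0.136, which was at 0.157 FPKM in the library where Cebpa was listed at 0, and to Hsd17b1 at 0.183, itself listed at 0 there. Irf8 was closest to Gpr137b-ps at 0.125 and Gm15454 at 0.167, and Klf4 to Rrm2b at 0.127 and Zbtb2 at 0.144. Gfi1 was closest to 2310040G24Rik at 0.155 and Nup43 at 0.167. Cebpb had the least close neighbours, Gch1 at 0.213 and Grina at 0.235. No other of the 8 factors was among the nearest genes of any factor, and with 7 libraries and 10793 genes such likeness is a description only.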

How the data were processed

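RNA of flow-sorted bone marrow cells had been sequenced by the authors, and 7 deposited tables were used, 1 per library, with 1 value for each of 52550 genes. The deposited values were taken as FPKM from their range, since no header named the unit. The submitters' processing notes name TopHat, HTSeq, Cufflinks, DESeq and the GRCm38 build, without versions. Because counts were not in these tables, log2(FPKM + 1) was tested with limma 3.58.1 in R 4.3.3 (mean-variance trend, two-sided, Benjamini-Hochberg) over the 10793 genes that reached 1 FPKM in 2 or more libraries. Genotype and stage were terms of one model, and a model of the 4 group means gave the within-stage contrasts and their difference, with the single WT pro-B library assumed to vary like the other groups. The FPKM pseudocount understates differences of low genes such as Cebpa and Klf4. Depth was inferred from steps in FPKM multiplied by transcript length (GENCODE M21) and is approximate. The scripts were tested on simulated data in which 200 of 10793 genes were changed. There the adjusted genotype test with the stages combined called 0% of changed genes at a true log2 difference of 1. At a true difference of 2 it called 61.5%. Within pre-pro-B cells, and for the difference between stages, it called 0% at either size. All 8 factors were named, with the 2 nearest profiles of each, and from the lists of other C/EBP genes, regulators and receptors up to 3 of the most abundant genes and any passing the adjusted test. Other genes, cell type markers included, were named after their values were seen. The factors and lists were chosen with earlier results of these data known. Replicate numbers were not treated as pairs in the main models, and deviations of replicates from their group means were little correlated between groups (0.0393, 0.0532 and -0.0127). The sample titles use the same numbers at both stages. Only the last correlation was within a genotype, and it included Lf-/- pre-pro-B replicate 2, so whether the stages shared mice was not settled. Alternatives covered the scaling, the filter, the pseudocount, array weights, a replicate block and leaving out each library.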

Additional observations from a re-analysis of the deposited data

How the results depend on the processing

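No alternative to the tests changed the direction of Irf8 (0.85 to 1.55) or of Cebpa (-1.98 to -0.46) between genotypes, and the call of Irf8 without Lf-/- pre-pro-B replicate 1 was the 1 call of a factor with the stages combined. Cebpa could not be tested with at least 1 FPKM required in every library. Genes passing the adjusted genotype test numbered 20, and 7 with median-ratio scaling, 10 with quantile normalization, 0 with no filter, 63 with the filter in every library, 9 with a pseudocount of 0.1 and 0 to 123 with a library left out (0 without the WT pro-B library, 59 and 123 without Lf-/- pre-pro-B replicates 1 and 2, 3 to 6 without any other). For the stages the count was 1, and 0 with the replicate block, quantile normalization, no filter or the smaller pseudocount, 6 with the filter in every library, 2 with array weights and 0 to 36 with a library left out (36 without Lf-/- pre-pro-B replicate 2). Within pre-pro-B cells 0 became 3 with the filter in every library and 0 to 3212 (factors 0 to 2) with a library left out, the 3212 and the 2 factors without Lf-/- pre-pro-B replicate 1. Within pro-B cells 0 became 256 with no filter, 3 with array weights and 0 to 1 with a library left out, and for the difference between stages 122 with no filter and 0 to 561, again without Lf-/- pre-pro-B replicate 1. Neither of the last comparisons could be fitted without the WT pro-B library. Genotype differences near 0 changed sign: Spi1 -0.22 and Cebpd -0.22 with median-ratio scaling, Cebpd -0.14 and Gfi1 -0.026 with quantile normalization, and with a library left out Spi1 ran from -0.040 to 0.33 and Cebpd from -0.0056 to 0.31. So did stage differences: Spi1 at 0.053 and Cebpd at 0.078 with the replicate block, 0.097 and 0.082 with median-ratio scaling, 0.15 and 0.12 with quantile normalization, Spi1 at 0.0065 and Cebpa at -0.079 with array weights, and with a library left out Spi1 -0.21 to 0.16, Cebpa -0.26 to 0.60, Cebpd -0.22 to 0.14, Cebpe -0.54 to 0.029, Klf4 -0.35 to 0.15 and Irf8 -0.22 to 0.41. The difference of the Irf8 effect between stages was -0.070 with median-ratio scaling and with quantile normalization, and -0.24 to 1.01 with a library left out. The replicate block gave 22 genes by genotype and changed no adjusted call of a factor. Scalings added after the data were seen gave 3 factors (median-ratio) and 2 (quantile) with separated genotypes, against 2. The share of all genes separated under those scalings was not computed. The cause of these shifts was not tested.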
